A study of Mus musculus with 12 samples.

Results

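The genes described here are 7 mouse genes, Enpp2, Trh, Sema6a, Fat3, Slc40a1, Klhl13 and Kctd12b, out of 35976 genes in a table of RNA sequencing. They were chosen by their level in these same libraries, as genes lower in PROSER1 KO+Rescue cells than in PROSER1 KO cells, either in mouse embryonic stem cells (mESC) or after 2 days of differentiation. All 7 were found in the table, and all 7 passed the filter on low values, set at an average of 10 over the 12 libraries, as did 15341 genes in all. A normalised count is the number of read pairs assigned to a gene, called reads below, scaled for the depth of the library. Because the choice used the KO+Rescue and KO libraries, the differences that involve them are described without a test.

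The 12 libraries came from KO+Rescue, KO and WT cells, each sampled after 48 hr in N2B27 medium (day 2) and as mESC, with 2 libraries, A and B, in each of the 6 groups. All 6 groups descend from mESC derived from blastocysts of TET2 fl/fl mice, so every group carries floxed Tet2 alleles, with no Cre step described for these lines. mESC grew without feeders on gelatin in serum with LIF and with inhibitors of GSK3 (CHIR99021) and of MEK (PD0325901), and the N2B27 medium contained none of these, so the stage and the loss of the inhibitors cannot be told apart. The KO cells are a line grown from a single sorted cell after CRISPR editing of Proser1 exon 1. Loss of PROSER1 and the clone therefore cannot be told apart in any difference between KO and WT. KO+Rescue is a KO line carrying a PiggyBac insertion of the Proser1 coding sequence with a FLAG tag, selected with blasticidin and grown again from a single cell, so Proser1 and the clone cannot be told apart in any difference between KO+Rescue and KO. Libraries A and B are labelled as biological replicates, and it is not said whether their cultures were kept apart, so errors and p-values cover the spread between these samples alone. The columns read as KO and KO+Rescue carry the code of a line, without and with the letter R, a reading that no label states.

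PROSER1 is a partner of the TET enzymes, which oxidise 5-methylcytosine at CpG dinucleotides and so start its removal, and N2B27, which holds no serum, lets mESC exit pluripotency towards neuroectoderm. The 7 genes have unlike functions. Enpp2 encodes autotaxin, a secreted enzyme that makes the signalling lipid lysophosphatidic acid (LPA). Trh encodes the precursor of thyrotropin-releasing hormone. Sema6a is a transmembrane semaphorin that binds plexins of class A and guides axons and migrating neurons. Fat3 is a giant cadherin of the FAT family that shapes the dendrites of retinal neurons. Slc40a1 encodes ferroportin, which exports iron from cells. Klhl13 is an adaptor that brings substrates to the CUL3 ubiquitin ligase, among them Aurora B in human cells. Kctd12b belongs to the KCTD family, whose member KCTD12 is an auxiliary subunit of GABAB receptors.

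The promoters are shown because CpG is the dinucleotide on which TET enzymes act and the 7 genes were picked as lower in KO+Rescue than in KO, in mESC or at day 2. DNA methylation was not measured in these libraries. RefSeq promoter windows of 300 bases, 250 before and 50 after the start, in GRCm38.p6 were found for 3 of the 7 genes, Trh, Fat3 and Klhl13, and are printed in the direction of the gene with each CG in capitals.
Trh promoter, chr6:92244601-92244900, minus strand: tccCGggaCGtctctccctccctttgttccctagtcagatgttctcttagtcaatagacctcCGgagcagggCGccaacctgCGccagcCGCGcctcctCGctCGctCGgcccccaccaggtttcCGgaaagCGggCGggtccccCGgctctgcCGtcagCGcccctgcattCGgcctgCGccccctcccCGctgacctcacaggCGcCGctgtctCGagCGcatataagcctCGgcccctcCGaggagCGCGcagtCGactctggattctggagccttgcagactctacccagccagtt
Fat3 promoter, chr9:16502005-16502304, minus strand: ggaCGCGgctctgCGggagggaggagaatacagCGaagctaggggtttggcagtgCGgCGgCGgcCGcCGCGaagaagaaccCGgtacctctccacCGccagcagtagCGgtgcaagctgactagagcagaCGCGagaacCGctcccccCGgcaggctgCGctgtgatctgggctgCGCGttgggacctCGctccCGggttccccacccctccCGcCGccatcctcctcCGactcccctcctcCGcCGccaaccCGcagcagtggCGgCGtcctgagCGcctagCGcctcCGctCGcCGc
Klhl13 outer promoter, chrX:23365033-23365332, minus strand: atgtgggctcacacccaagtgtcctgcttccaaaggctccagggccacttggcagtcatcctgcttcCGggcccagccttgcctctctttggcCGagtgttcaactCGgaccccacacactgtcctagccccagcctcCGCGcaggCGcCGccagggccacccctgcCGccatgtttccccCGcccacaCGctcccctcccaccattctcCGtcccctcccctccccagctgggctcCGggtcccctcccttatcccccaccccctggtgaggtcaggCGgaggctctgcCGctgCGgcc
Klhl13 inner promoter, chrX:23266753-23267052, minus strand: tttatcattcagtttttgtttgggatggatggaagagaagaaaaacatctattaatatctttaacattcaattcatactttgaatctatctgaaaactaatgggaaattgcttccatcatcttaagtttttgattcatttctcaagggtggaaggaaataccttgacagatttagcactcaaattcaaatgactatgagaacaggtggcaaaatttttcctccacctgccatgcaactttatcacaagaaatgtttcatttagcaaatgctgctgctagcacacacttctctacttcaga
The motif counted was CG, which reads the same on both strands, with each occurrence counted once. The Trh window held 28 CG, and 14.2% of 32851 windows of the same length held at least as many. The Fat3 window held 35 CG, a number reached by 6.95% of windows. The outer Klhl13 window held 15 CG, a number reached by 34.6% of windows, and the inner one held 0. RefSeq lists 5 Klhl13 windows, and the 3 not printed held 16, 8 and 3 CG. The median over all windows was 7 CG, so the Trh, Fat3 and outer Klhl13 windows lay above it. These counts describe the letters of the windows and say nothing on binding or methylation there.

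Wherever a group is given a pair of values, library A precedes library B. Each library held 38634668 to 66450803 assigned reads. Proser1 itself, on chromosome 3 (53463795 to 53481755, GRCm38), had normalised counts of 3041 and 2994 in KO+Rescue, 872 and 1067 in KO and 829 and 685 in WT at day 2. In mESC it had 2828 and 3090 in KO+Rescue, 576 and 502 in KO and 889 and 550 in WT. Proser1 RNA was therefore above KO in KO+Rescue at both stages, by 1.64 ± 0.20 at day 2 and 2.46 ± 0.20 in mESC on the log2 scale (SE, limma adjusted p = 0.0012 and 0.00022). KO did not pass the test against WT at either stage (limma adjusted p = 0.37 at day 2 and 0.22 in mESC). The summed normalised count of 7 pluripotency markers was 75055 to 82990 in KO+Rescue, 83743 to 91392 in KO and 52625 to 70052 in WT at day 2, and 200769 to 220864, 204480 to 215526 and 159729 to 177899 in the same genotypes as mESC. All 7 markers were lower at day 2 than in mESC in WT. The sum is mostly Pou5f1. Nanog, one of the 7 markers, was highest in KO at day 2, as were the members Enpp2, Trh and Kctd12b. Nanog means were 577 ± 18.8 in KO+Rescue, 1656 ± 49.6 in KO and 692 ± 245 in WT (SD, n = 2 each). Its limma adjusted p was 0.0015 for KO+Rescue against KO and 0.0013 for KO against WT. Esrrb was lower in KO than in WT at day 2 (114 and 332, limma adjusted p = 0.00083). Of 4 tested neuroectoderm markers, Sox1 and Pax6 were higher in KO than in WT at day 2 (limma adjusted p = 0.0069 and 0.017). Nes and Zic1 did not pass, and none of the 4 passed in KO+Rescue against KO. Sox1 was also higher in KO than in WT in mESC (limma adjusted p = 0.0091). It was higher in KO+Rescue than in WT at both stages (limma adjusted p = 0.0021 at day 2 and 0.0091 in mESC). Pax6 did not pass in these comparisons. Of 4 tested markers of primitive endoderm, Dab2 averaged 8.11 in KO+Rescue, 30.6 in KO and 11.9 in WT mESC. It passed in mESC for KO+Rescue against KO and for KO against WT (limma adjusted p = 0.030 and 0.032), and not at day 2. Gata4 was higher in KO than in WT at day 2 (limma adjusted p = 0.025), while Pdgfra and Sox7 passed in neither contrast. The part of these markers in the levels of the 7 genes was not tested.

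In the contrast that chose them, KO+Rescue lay below KO without overlap of the libraries for 5 of the 7 genes at day 2 and for 6 of 7 in mESC. Over the whole table, limma called 1.33% of tested genes lower and 0.502% higher at day 2, and 1.04% lower and 0.476% higher in mESC (adjusted p under 0.05). The counts of members follow from how the genes were chosen, so they were not tested and nothing is read from them against these shares. The median log2 difference of the 7 genes was -1.08 at day 2 and -2.04 in mESC, beside -0.02 and 0.03 over all tested genes. Enpp2, Slc40a1, Klhl13 and Kctd12b were lower in KO+Rescue at both stages. The label of the group does not hold for the other 3 at one of the stages each, since Trh was higher in KO+Rescue mESC, Fat3 was higher in KO+Rescue at day 2, and Sema6a overlapped at day 2.

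**Figure D1:**
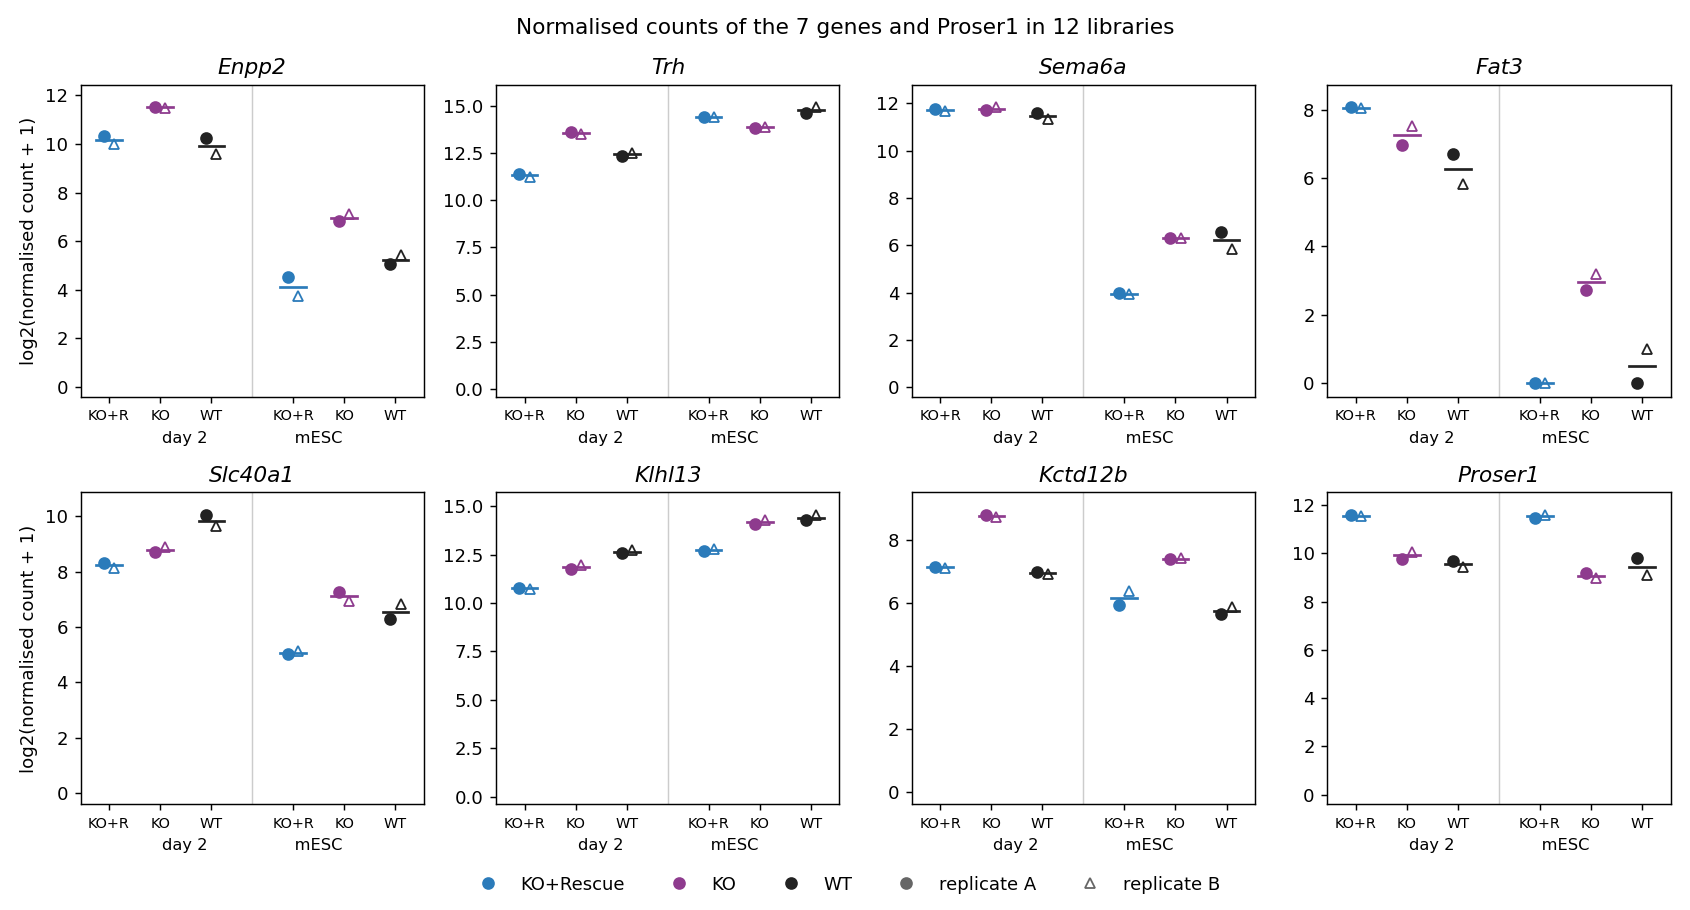
Normalised counts of the 7 genes and of Proser1 on a log2(normalised count + 1) axis, one panel per gene. Filled circles are library A and open triangles library B, and bars are the mean of the 2 log values of a group. KO+R stands for KO+Rescue. The KO+Rescue points lie below the KO points at both stages for Enpp2, Slc40a1, Klhl13 and Kctd12b, and Fat3 lies at 0 in both KO+Rescue mESC libraries.

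Enpp2, which encodes autotaxin, was highest in KO at both stages. At day 2 its normalised count was 1269.5 and 1029 in KO+Rescue, 2916 and 2893 in KO, and 1205 and 764 in WT. In mESC it was 21.96 and 12.5 in KO+Rescue, 113 and 136 in KO, and 32.0 and 41.7 in WT. The 6 groups ran, from the top, KO day 2, KO+Rescue day 2, WT day 2, KO mESC, WT mESC and KO+Rescue mESC, and of these neighbours KO+Rescue and WT at day 2 overlapped. KO+Rescue minus KO was -1.34 ± 0.27 at day 2 and -2.83 ± 0.27 in mESC (log2, SE), which is 2.54-fold and 7.12-fold lower. KO minus WT was 1.60 ± 0.27 at day 2 and 1.74 ± 0.27 in mESC, so the KO level was about the same multiple of WT at both stages. KO+Rescue minus WT was 0.25 ± 0.27 at day 2, or -0.08 without WT library B, and -1.09 ± 0.27 in mESC, where both KO+Rescue libraries lay below both WT libraries. These mESC levels rest on few reads, 21 and 7 in KO+Rescue, and 27 and 41 in WT. Folds are the antilog of the difference of log2(normalised count + 1), which understates changes of low genes. Enpp2 lies on chromosome 15 (54838901 to 54952789, GRCm38).

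Kctd12b, the KCTD family gene, had a similar order of genotypes. Day 2 libraries A and B held normalised counts of 140 and 138 in KO+Rescue, 446 and 421 in KO, and 127 and 121 in WT. The mESC values were 59.6 and 81.9 in KO+Rescue, 166 and 171 in KO, and 48.6 and 58.0 in WT. No neighbours overlapped in the order KO day 2, KO mESC, KO+Rescue day 2, WT day 2, KO+Rescue mESC and WT mESC, so the KO mESC libraries lay above the day 2 libraries of the other 2 genotypes. KO+Rescue minus KO was -1.64 ± 0.22 at day 2 and -1.26 ± 0.22 in mESC (log2, SE), and KO minus WT was 1.80 ± 0.22 and 1.65 ± 0.22 at the same stages. KO+Rescue minus WT was 0.17 ± 0.22 at day 2 and 0.39 ± 0.22 in mESC, and the day 2 value was -0.03 when libraries were scaled to equal totals. Kctd12b is X-linked (X chromosome, 153685154 to 153696386, GRCm38), and how reads shared with its paralog Kctd12 were counted is not given in the sources used here.

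Trh, the hormone precursor, was highest in KO at day 2 and lowest in KO in mESC. Its normalised count at day 2 was 2685 and 2413 in KO+Rescue, 12233 and 11450.4 in KO, and 5200 and 5718 in WT. Its mESC values were 21567 and 21595 in KO+Rescue, 14167 and 15201 in KO, and 24519 and 30550 in WT. None of the 6 groups overlapped, and the order from the top was WT mESC, KO+Rescue mESC, KO mESC, KO day 2, WT day 2 and KO+Rescue day 2. The difference KO+Rescue minus KO was -2.22 ± 0.13 at day 2 (log2, SE), which is 4.65-fold lower, and 0.56 ± 0.13 in mESC, which is 1.47-fold higher. KO minus WT was 1.12 ± 0.13 at day 2 and -0.90 ± 0.13 in mESC, so KO lay above WT at day 2 and below it in mESC. KO+Rescue minus WT was -1.10 ± 0.13 at day 2 and -0.34 ± 0.13 in mESC. Per kilobase of transcript (longest GENCODE transcript), Trh was the most abundant of the 7 genes in each of the 6 groups, from 1484 normalised counts per kb in KO+Rescue day 2 to 16027 in WT mESC. The gene spans 2590 bases on chromosome 6 (92242061 to 92244650, GRCm38), and its CpG-rich promoter is the first of those printed above.

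The mesendoderm markers T and Eomes were highest in KO at day 2, as Trh, Enpp2 and Kctd12b were. The summed normalised count of the 6 listed markers (T, Eomes, Mixl1, Gsc, Foxa2 and Sox17) was 105 to 131 in KO+Rescue, 448 to 477 in KO and 164 to 218 in WT at day 2, with no marker at 0 in both libraries of a group. The mESC sums were 864 to 920.2 in KO+Rescue, 772 to 863 in KO and 1534 to 1535 in WT. Of the 5 that were tested, T and Eomes, transcription factors of the primitive streak, had less RNA in KO+Rescue at day 2 than in KO (limma adjusted p = 0.0033 and 0.00063), and Mixl1, Gsc and Foxa2 did not pass. Mixl1 averaged 19.7 in KO+Rescue, 19.3 in KO and 30.6 in WT at day 2, unlike Trh. Most of the KO sum was Eomes, which had 73.9 and 51.7 in KO+Rescue, 310.3 and 312 in KO, and 117 and 65.2 in WT. The part of these markers in the Trh result was not tested, and in bulk samples fewer cells of a type and less RNA per cell cannot be told apart. Summed fibroblast markers, mostly Thy1 and Dcn, were 718 to 746 in KO+Rescue, 1452 to 1613 in KO and 1109 to 1224 in WT at day 2, with Lum at 0 in KO+Rescue and Postn at 0 in KO. Of the 4 that were tested, 1 was called in KO+Rescue against KO at day 2, Thy1, also found on neurons, with means of 488, 1025 and 733 in KO+Rescue, KO and WT (limma adjusted p = 0.017). Col1a1, another of the listed fibroblast markers, averaged 18.0 in KO+Rescue, 38.6 in KO and 94.2 in WT at day 2. Their sum in mESC was 99.7 to 140 in KO+Rescue, 140 to 166 in KO and 354 to 409 in WT, and their part in the day 2 levels of the 7 genes was not tested.

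Sema6a, the plexin ligand, separated KO+Rescue from the other genotypes in mESC and not at day 2. Day 2 normalised counts were 3508 and 3313 in KO+Rescue, 3323 and 3637 in KO, and 3039 and 2586 in WT. As mESC, cells held 14.6 and 14.2 in KO+Rescue, 78.4 and 78.2 in KO, and 94.8 and 56.0 in WT. The KO+Rescue mESC values are 14 and 8 reads, against 70 and 58 in KO and 80 and 55 in WT. KO+Rescue and KO overlapped at day 2, KO and WT overlapped in mESC, and no other neighbours in the order of the 6 groups did. The log2 difference of KO+Rescue and KO was -0.03 ± 0.21 at day 2 and -2.36 ± 0.21 in mESC (SE), which is 5.14-fold lower. KO minus WT was 0.31 ± 0.21 at day 2 and 0.10 ± 0.21 in mESC, or -0.27 without WT library B and -0.11 with equal library totals, so the low KO+Rescue mESC level was also low beside WT, by -2.26 ± 0.21. KO+Rescue minus WT was 0.28 ± 0.21 at day 2. Sema6a lies on chromosome 18 (47245254 to 47371200, GRCm38).

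Fat3, the giant cadherin, was close to the limit of detection in mESC and was highest in KO+Rescue at day 2. At day 2 its normalised count was 270 and 262 in KO+Rescue, 125 and 183 in KO, and 104 and 55.8 in WT, with no overlap between the groups. In mESC it was at 0 in both KO+Rescue libraries, at 5.602 and 8.09 in KO (5 and 6 reads) and at 0 and 1.02 in WT (0 and 1 read). With KO+Rescue mESC set at a floor of 3 reads over the group, a normalised count of 1.98, it was 3.41-fold lower than KO mESC. That value leaves out the counting error of the 11 KO reads, so it is not a lower limit. KO mESC was 12.3 times WT mESC (95% interval 1.79 to 529, exact and for counting error only), while KO+Rescue and WT mESC are both under the floor and give no fold. At day 2, KO+Rescue minus KO was 0.81 ± 0.49 (log2, SE), KO minus WT was 0.98 ± 0.49 and KO+Rescue minus WT was 1.79 ± 0.49. Fat3 was therefore picked on a mESC difference of 11 reads against 0, and at day 2 it moved the other way. Fat3 spans 592493 bases on chromosome 9 (15910189 to 16502681, GRCm38), and per kilobase of transcript it was the least abundant of the 7 genes in every group.

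Slc40a1, the iron exporter, was lowest in KO+Rescue at both stages. At day 2 its normalised count was 314 and 283 in KO+Rescue, 420 and 468 in KO, and 1064 and 794 in WT. In mESC it was 31.4 and 33.8 in KO+Rescue, 155 and 121 in KO, and 77.1 and 113 in WT. From the bottom, the order was KO+Rescue, WT and KO in mESC, followed by KO+Rescue, KO and WT at day 2, and no neighbours overlapped. KO+Rescue minus KO was -0.57 ± 0.23 at day 2 and -2.04 ± 0.23 in mESC (log2, SE), which is 1.49-fold and 4.11-fold lower. KO minus WT was -1.05 ± 0.23 at day 2 and 0.55 ± 0.23 in mESC, so at day 2 KO already lay below WT and KO+Rescue lay lower still. KO+Rescue minus WT was -1.62 ± 0.23 at day 2 and -1.49 ± 0.23 in mESC. Slc40a1 lies on chromosome 1 (45908070 to 45926532, GRCm38).

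Klhl13, the CUL3 adaptor, was abundant and lay lowest in KO+Rescue, next in KO and highest in WT at each stage. At day 2 its normalised count was 1778 and 1692 in KO+Rescue, 3411 and 3952 in KO, and 6122 and 6785 in WT. In mESC it was 6614 and 7213 in KO+Rescue, 17096 and 19773 in KO, and 19994 and 23963 in WT. KO+Rescue mESC overlapped WT day 2 in the order of the 6 groups, and no other neighbours did. KO+Rescue minus KO was -1.08 ± 0.14 at day 2 and -1.41 ± 0.14 in mESC (log2, SE), which is 2.12-fold and 2.66-fold lower. KO minus WT was -0.81 ± 0.14 at day 2 and -0.25 ± 0.14 in mESC. KO+Rescue minus WT was -1.89 ± 0.14 at day 2 and -1.66 ± 0.14 in mESC, so re-expression went with a level farther from WT than that of KO. Klhl13 is X-linked (X chromosome, 23219271 to 23365161, GRCm38), and its outer and inner promoters are printed above. The 542 tested X-linked genes had a median KO+Rescue minus KO difference of 0.01 at day 2 and -0.08 in mESC, beside -0.02 and 0.03 for 13959 autosomal genes. Among the 542 X-linked genes, Klhl13 and Kctd12b included, 5 were called higher and 8 lower in KO+Rescue at day 2, and in mESC limma called 16, all lower. Over all tested genes, 0.502% were called higher and 1.33% lower at day 2, and 0.476% higher and 1.04% lower in mESC.

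**Figure D2:**
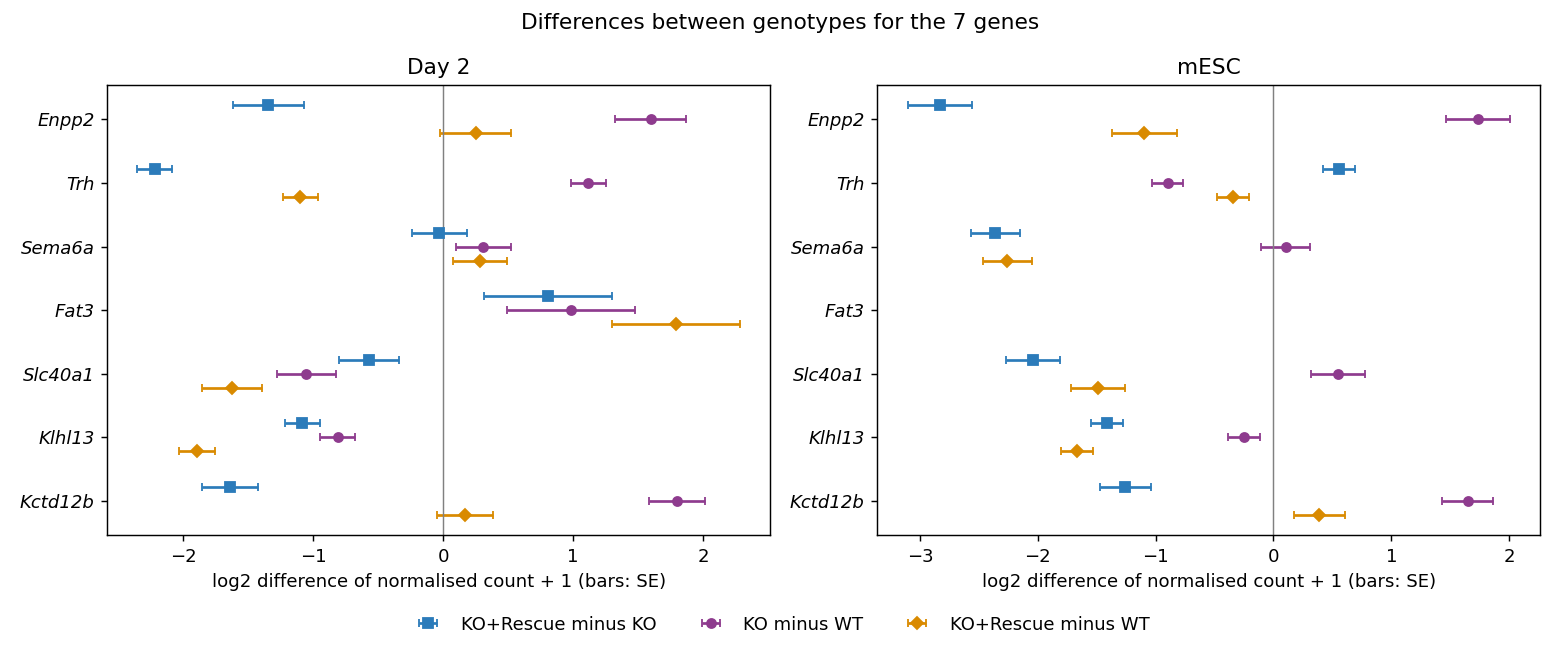
Differences between genotypes for the 7 genes on the log2 scale, day 2 on the left and mESC on the right, with SE bars. Squares are KO+Rescue minus KO, circles KO minus WT and diamonds KO+Rescue minus WT, and the contrasts share libraries. Fat3 is left out in mESC, where it is at 0 in both KO+Rescue libraries. Enpp2 and Kctd12b are above WT in KO at both stages (1.60 and 1.74, 1.80 and 1.65), Klhl13 lies below WT in both comparisons, and Trh changes side between the panels in KO+Rescue minus KO and in KO minus WT, while KO+Rescue minus WT stays below 0 (-1.10 and -0.34).

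Set side by side against WT, the 7 genes fell into unlike patterns. Enpp2 and Kctd12b lay above WT in KO at both stages, and in KO+Rescue they lay near WT at day 2. Klhl13 lay below WT in KO and farther below it in KO+Rescue, and Slc40a1 did so at day 2. Sema6a was near WT in KO mESC and below WT in KO+Rescue mESC. Over the 7 genes, KO was higher than WT in 5 and lower in 2 at each stage, with medians of 0.98 at day 2 and 0.55 in mESC, beside 0.02 and -0.04 over all tested genes. KO+Rescue was higher than WT in 4 and lower in 3 at day 2, and higher in 1 and lower in 6 in mESC, with medians of 0.17 and -1.09, beside -0.03 and -0.06 over all tested genes. These comparisons share the KO or the KO+Rescue libraries with the choice of the genes.

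The change on differentiation in WT cells compares libraries that did not enter the choice of the genes, and it was tested. Its error came from a joint fit of all 12 libraries, KO and KO+Rescue included, so its p-values are not free of the choice. All 7 genes changed between day 2 and mESC in WT (limma, Benjamini-Hochberg over 15341 genes). All 7 stayed called when the 2 WT groups were fitted alone. Enpp2, Sema6a, Fat3, Slc40a1 and Kctd12b were higher at day 2, 5 of 7, where 26.6% of all tested genes were called higher. Of these, Fat3 passed the filter on low values through its day 2 libraries alone, the stage where it was high. Klhl13 and Trh were lower at day 2, 2 of 7, where 25.3% of all genes were called lower. About the same share of genes changed in each direction over the whole table, so a change at this stage is common.

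Sema6a had the largest fitted WT change of the members with reads in every library, 5.25 ± 0.21 on the log2 scale (SE, limma adjusted p = 1.5e-09), and was 38.0-fold higher at day 2. Enpp2 was higher by 4.68 ± 0.27 (adjusted p = 3.5e-08), a 25.6-fold difference. Slc40a1 was higher by 3.29 ± 0.23 (adjusted p = 1.6e-07) and Kctd12b by 1.21 ± 0.22 (adjusted p = 0.00045), all with both day 2 libraries above both mESC libraries. Fat3 passed the test (adjusted p = 8.5e-07), and its 248 reads at day 2 against 1 in mESC are a ratio of 149 (exact 95% interval 26.6 to 5923, counting error only). Because Fat3 entered the test through its day 2 libraries alone, the filter favoured a call in this direction. Fat3 kept its call when no filter was used. Trh fell by 2.33 ± 0.13 (adjusted p = 3.0e-08), a 5.02-fold difference, and Klhl13 fell by 1.76 ± 0.14 (adjusted p = 3.7e-07), a 3.40-fold difference. The X-linked members thus moved apart on differentiation, Kctd12b higher and Klhl13 lower. Over 14 alternative settings the highest adjusted p of any of the 7 was 0.0165, for Kctd12b.

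The stage changes of the other genotypes ran in the same directions, and their sizes are descriptions. Sema6a differed by 7.79 ± 0.21 in KO+Rescue and 5.45 ± 0.21 in KO (log2, SE). Enpp2 differed by 6.02 ± 0.27 in KO+Rescue and 4.54 ± 0.27 in KO. Slc40a1 differed by 3.16 ± 0.23 in KO+Rescue and 1.69 ± 0.23 in KO, so the change was smaller in KO than in the other genotypes. Trh differed by -3.08 ± 0.13 in KO+Rescue and by -0.31 ± 0.13 in KO, and the KO value was 0.03 with libraries scaled to equal totals. Trh thus stayed near its mESC level in KO at day 2. Klhl13 differed by -1.99 ± 0.14 in KO+Rescue and -2.32 ± 0.14 in KO, and Kctd12b by 0.98 ± 0.22 in KO+Rescue and 1.36 ± 0.22 in KO. In KO+Rescue, Fat3 was 134-fold higher at day 2 than in mESC with mESC set at the floor of 3 reads. In KO the ratio was 22.9 (95% interval 12.6 to 46.1, exact, counting error only).

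**Figure D3:**
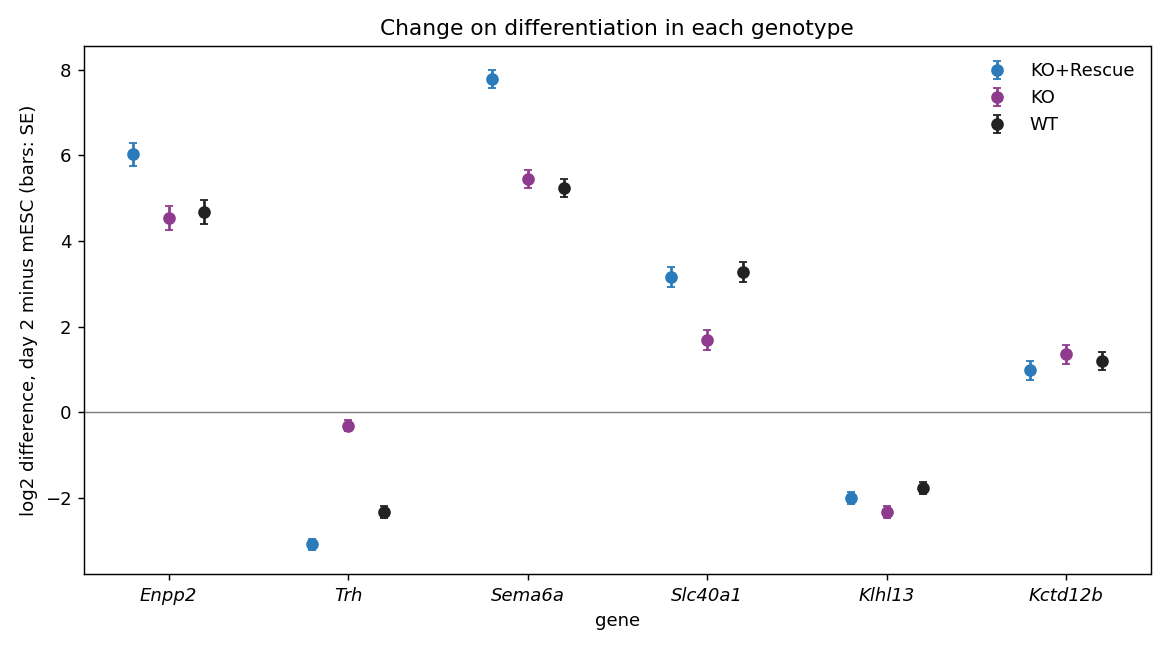
Day 2 minus mESC on the log2 scale (points, with SE bars) for 6 of the 7 genes in KO+Rescue, KO and WT. Fat3 is left out because it is at 0 in both KO+Rescue mESC libraries. Enpp2, Sema6a, Slc40a1 and Kctd12b lie above 0 and Klhl13 below 0 in all 3 genotypes, and Trh lies at -3.08 in KO+Rescue, -0.31 in KO and -2.33 in WT.

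The profiles of the members were compared with each other and with other genes by the mean absolute difference of log2(normalised count + 1), centred on the gene's own mean, over the 12 libraries. Among the members the nearest pair was Enpp2 and Fat3, 0.64 apart, followed by Klhl13 and Trh, 0.71 apart, and the farthest was Sema6a and Klhl13, 4.09 apart. Out of 12332 other genes with a mean of at least 50, the nearest to Trh were Eomes at 0.33 and Kcnj12 at 0.34. The nearest to Kctd12b were Cald1 at 0.25 and Gap43 at 0.25, and to Klhl13 AU015836 at 0.26 and Lgals9 at 0.31. Slc40a1 lay nearest to Lzts1 at 0.35 and St6gal1 at 0.39, and Sema6a to Pcsk2 at 0.43 and H2-Q6 at 0.45. Enpp2 lay nearest to Car14 at 0.55 and Cxcl12 at 0.56, and Fat3 to Shisa6 at 0.59 and Cxcl12 at 0.73. These distances are a description over 6 groups of 2 libraries.

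The genes that work with each member were followed through 7 lists of 90 partners, of which 74 were tested. In KO+Rescue against KO at day 2, 1 partner was called higher and 2 lower (1.35% and 2.70% of those tested, beside 0.502% and 1.33% of all genes). Plxna2, the plexin that receives Sema6a, was higher in KO+Rescue, with 109 and 99.6 against 36.9 and 35.9 in KO, and 65.4 and 45.6 in WT (log2 difference 1.49 ± 0.32, SE, limma adjusted p = 0.036). Steap3, a reductase that readies iron for uptake from endosomes, was lower, with 204 and 264 in KO+Rescue, 530 and 471 in KO, and 339 and 312 in WT (-1.10 ± 0.18, limma adjusted p = 0.0091). Dusp9, an X-linked ERK phosphatase listed with Klhl13 because both are linked to pluripotency exit in female mouse ES cells, was lower too, with 1294 and 1261 in KO+Rescue, 2048 and 1815 in KO, and 3048 and 2635 in WT (-0.59 ± 0.14, limma adjusted p = 0.047). None of the 3 was called without KO+Rescue library A, KO library A or KO library B, and without KO+Rescue library B Steap3 alone was. Plxna2 also lost its call with no filter and with equal library totals (adjusted p = 0.086 and 0.081), and Dusp9 with these (0.076 and 0.12), with TMM scaling (0.066) and with edgeR (0.056). In mESC limma called 1 partner, Enpp3, a relative of autotaxin, lower in KO+Rescue, with 414 and 360 in KO+Rescue, 715 and 637 in KO, and 728 and 618 in WT (-0.80 ± 0.15, limma adjusted p = 0.022). It lost its call without KO+Rescue library B, KO library A or KO library B, with adjusted p = 0.15, 0.17 and 0.084.

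In the lists without a call, the most abundant partner is named, and it need not stand for its list. The median KO+Rescue minus KO difference of the 5 tested hormone processing genes was -0.07 at day 2 and -0.48 in mESC (log2). The medians were 0.03 and 0.15 for the FAT list and -0.17 and -0.20 for the GABAB list. Over all tested genes they were -0.02 and 0.03. The hormone processing enzyme Cpe, a carboxypeptidase, differed by -0.07 ± 0.22 at day 2 and 0.09 ± 0.22 in mESC between KO+Rescue and KO (log2, SE). Enah, an actin regulator listed with Fat3, differed by 0.12 ± 0.14 and -0.06 ± 0.14 at these stages. Gabbr1, a GABAB receptor subunit listed with Kctd12b, differed by -0.07 ± 0.20 and 0.04 ± 0.20. In mESC the most abundant partners of the other lists were Crmp1 for the plexins (0.01 ± 0.15), Ftl1, the ferritin light chain, for iron (0.02 ± 0.17), and Rbx1, the RING subunit of cullin ligases, for CUL3 (0.28 ± 0.19), and the LPA list at day 2 was led by Enpp3 (-0.49 ± 0.15, limma adjusted p = 0.13). None of these passed the test.

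The same partners were compared in the contrasts that the choice of the genes did not use as its own. KO against WT called 3 of 74 partners at day 2, all lower in KO, where 1.57% of all genes were called higher and 3.64% lower. They were Lpar3, an LPA receptor, Hmox1, the haem oxygenase that frees iron, and Dusp9. Hmox1 had a mean of 2612 ± 306 in KO and 4381 ± 670 in WT at day 2 (SD, n = 2 each, limma adjusted p = 0.015). None of the 3 was called without KO library A, KO library B or WT library A. In mESC, 5 of 74 were higher in KO and 9 lower, where 3.23% of all genes were called higher and 6.26% lower. Those higher were the LPA receptor Lpar4, the iron regulator Bach1, the prohormone convertase Pcsk1, the amidating enzyme Pam, which finishes peptides such as thyrotropin-releasing hormone, and Gabbr1. Those lower were Plpp2, Crmp1, Dpysl2, Hmox1, Slc39a14, Hfe, Klhl22, Fjx1 and Vangl2. The iron list, the longest with 17 of the 74 tested, gave 3 of the 9, and its member Bach1 was among those higher. Of 14 calls in all, 5 were made without KO library A, 1 without KO library B and 3 without WT library A.

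Between day 2 and mESC in WT, 32 of 74 partners were higher and 16 lower, 43.2% and 21.6%, beside 26.6% and 25.3% of all genes, and their median log2 difference was 0.34 beside -0.02 over all genes. All 5 tested hormone processing genes, Pcsk1, Pcsk2, Furin, Cpe and Pam, were higher at day 2 in WT while Trh, their possible substrate, was lower. The LPA list held 6 higher and 5 lower of 12, with the receptors Lpar2, Lpar3, Lpar4 and Lpar6 higher and Lpar1 and Lpar5 lower. Of these, Lpar3 passed the filter through WT day 2 alone, the group where it was high. The plexin list held 6 higher and 1 lower of 11, the FAT and planar polarity list 7 higher and 2 lower of 12, and the GABAB list 3 higher and 2 lower of 5. The iron list held 4 higher and 4 lower of 17, with the transferrin receptor Tfrc lower and the ferritin heavy chain Fth1 higher. The CUL3 list held 1 higher and 2 lower of 12.

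Genes next to the members were compared to see whether a wider stretch of chromosome moved with them. Within 1 Mb of the 7 genes lay 57 other tested genes. For scale, limma called 0.502% of all tested genes higher and 1.33% lower in KO+Rescue against KO at day 2. The shares in mESC were 0.476% higher and 1.04% lower. In KO+Rescue against KO at day 2, 1 of the 57 was called, the RIKEN transcript A730049H05Rik, 574 kb from Trh, which was lower, with 1.17 and 0 in KO+Rescue, 10.3 and 10.5 in KO, and 1.82 and 5.07 in WT (limma adjusted p = 0.011). It is named here because it was the single call, and it lost the call without KO+Rescue library B, KO library A or KO library B (adjusted p = 0.12, 0.12 and 0.099) and with DESeq2 (adjusted p = 0.061). In mESC none of the 57 was called by limma, 7 had an unadjusted p under 0.05, edgeR and DESeq2 called 0, and without KO+Rescue library A limma called 1. The nearest tested genes on either side of Trh were Rbsn (-0.03 ± 0.16 at day 2, log2, SE) and Prickle2 (-0.80 ± 0.43), and those beside Enpp2 were Mal2 (-0.39 ± 0.21 in mESC) and Taf2 (-0.09 ± 0.12). Those beside Sema6a in mESC were Commd10 (0.06 ± 0.17) and Eno1b (-1.71 ± 0.56), and those beside Slc40a1 were Wdr75 (-0.06 ± 0.13) and Dnah7b (0.42 ± 0.36). Klhl13 had Slc6a14 (-1.65 ± 0.44) and Wdr44 (-0.33 ± 0.16) beside it in mESC, Fat3 had Slc36a4 (-0.62 ± 0.34) and Chordc1 (0.27 ± 0.15), and Kctd12b had Cypt3 (2.01 ± 0.57) and Spin2c (-0.38 ± 0.20). None of these flanking genes passed the test in KO+Rescue against KO at either stage, and the distances of Slc6a14 and Chordc1 from their member exceeded 1 Mb. In KO against WT, limma called 0 of the 57 higher and 2 lower at day 2, beside 1.57% and 3.64% of all tested genes. The 2 were Cdo1 and Arl14epl, near Sema6a. In mESC 2 were called higher and 1 lower, beside 3.23% and 6.26%. The 2 higher, Foxr2 and Spin2c, lie within 1 Mb of Kctd12b, which was also higher in KO. The 1 lower was Col14a1, near Enpp2, which was higher in KO. No other RefSeq gene of GRCm38 overlapped the span of any of the 7 genes.

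**Figure D4:**
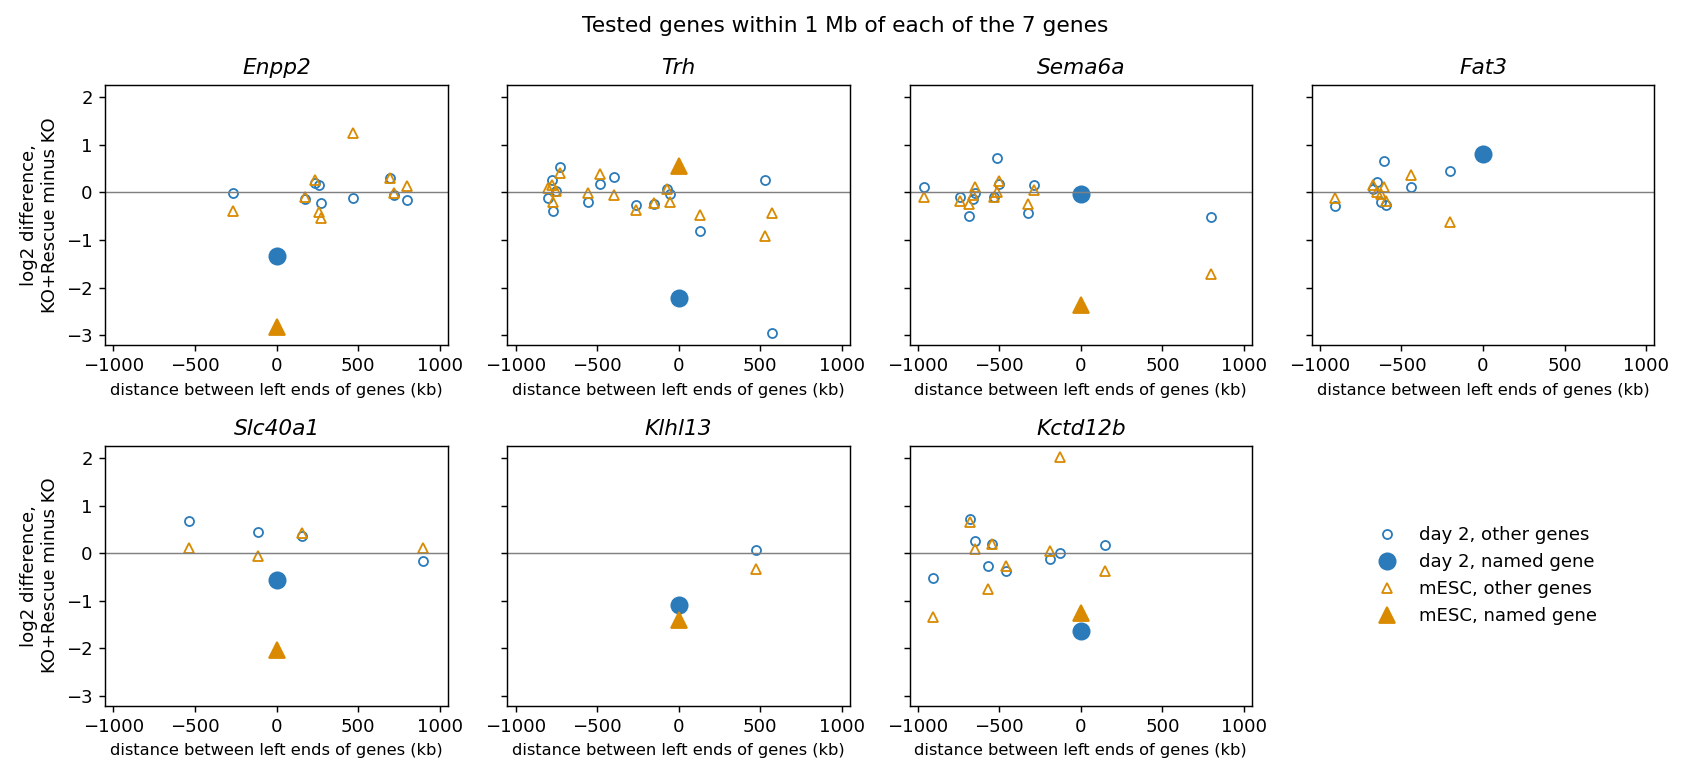
KO+Rescue minus KO on the log2 scale for the tested genes within 1 Mb of each of the 7 genes, against the distance between the left ends of the genes in kb. Circles are day 2 and triangles mESC, filled for the named gene and open for other genes, and Fat3 is left out in mESC. The open point 574 kb from Trh at -2.95 is A730049H05Rik, whose KO+Rescue libraries hold 1.17 and 0 at day 2.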

How the data were processed

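RNA was sequenced in 12 libraries. The deposited values are a signal, the normalised count of each gene. The authors trimmed reads (Trimmomatic), aligned them to mm10 (STAR), counted pairs (featureCounts) and divided by DESeq2 size factors, in versions not given in the sources used here. The kit was directional, and whether counting used strand was not given. The authors left out reads of the Y chromosome. In each library 100% of values were whole multiples of 1 read (tolerance 0.001), so whole reads were recovered, and library totals ran from 38634668 to 66450803. All per-sample columns were used.

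Values were taken as log2(normalised count + 1) and fitted with limma 3.58.1 (R 4.3.3, intensity trend, 6 group means over 12 libraries, 6 residual and 6.92 prior degrees of freedom). The filter was a mean of at least 10. Tests were two-sided, Benjamini-Hochberg adjusted over 15341 genes, and called at an adjusted p under 0.05. The fit was tested on simulated data. Alternatives were pseudocounts of 0.5 and 5, no filter, a mean of at least 50, equal library totals, TMM scaling, the 2 groups alone, a replicate block, each library left out, and edgeR 4.0.16 and DESeq2 1.42.0 on the recovered reads. limma was the main test because the deposited unit is normalised. In WT day 2 against mESC it called 7967 genes, edgeR 8227 and DESeq2 8369. The members and lists were chosen with earlier results of these data known. Named were the 7 members and Proser1, per partner list and stage up to 2 called genes with the smallest adjusted p or else the most abundant, the nearest tested gene on each side, and the 2 nearest profiles. Other genes are named as calls of the listed sets. Positions, promoters and overlaps came from RefSeq for GRCm38.p6, which placed 94.6% of tested genes, and transcript lengths from GENCODE vM39. Intervals cover counting error only, and folds at a floor leave out the counting error of the higher group.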

Additional observations from a re-analysis of the deposited data

Results flagged for a closer look

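For 5 pairs of comparisons, both libraries of a genotype moved one way at day 2 and the other way in mESC, and the difference between the stages was not tested because the libraries that chose the genes enter it. Each value is the log2 difference at day 2 minus that in mESC. Trh gave -2.77 for KO+Rescue against KO, being lower at day 2 and higher in mESC, and 2.02 for KO against WT, being higher at day 2 and lower in mESC. Fat3 gave 3.76 for KO+Rescue against KO, being higher at day 2 and lower in mESC, a fitted value that depends on the added 1 because both KO+Rescue mESC libraries are at 0. Slc40a1 gave -1.60 for KO against WT, being lower at day 2 and higher in mESC. Sema6a gave 2.54 for KO+Rescue against WT, being higher at day 2 and lower in mESC.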

How the results depend on the processing

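All 7 members stayed called in WT under every alternative run. Of 882 alternative member values, 808 were counted as unchanged. Among these, the 98 values of the WT stage change were judged by keeping their call, and the rest by moving no more than the error. By size, each of the 7 WT stage changes moved beyond its error in some setting, as Fat3 from 3.89 to 7.19 and Sema6a from 4.87 to 5.62. A further 72 values moved by more than the error, and 2 changed sign although the libraries had not overlapped. Both sign changes came with equal library totals: Trh day 2 against mESC in KO (0.028) and Kctd12b KO+Rescue against WT at day 2 (-0.030). Values whose libraries overlapped also crossed 0: Enpp2 KO+Rescue against WT at day 2 ranged from -0.08 to 0.58, Sema6a KO against WT in mESC from -0.27 to 0.48 and Sema6a KO+Rescue against KO at day 2 from -0.12 to 0.04. That scaling moved the median of all genes by -0.32 (KO+Rescue against WT, mESC) to 0.36 (day 2 against mESC in KO+Rescue). The few calls among partners and neighbours moved with most settings, and depth limits the low mESC levels of Fat3, Sema6a and Enpp2.

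Partner calls in KO+Rescue against KO at day 2 numbered 3, and 1 without a filter, 1 with equal totals and 10 with the 2 groups alone, with 0 to 1 when a library was left out. In mESC there was 1, against 3 with a mean of at least 50, 0 with equal totals, 0 with the 2 groups alone and 4 with DESeq2, with 0 to 1 when a library was left out. KO against WT at day 2 gave 3, against 1 without a filter, 1 with the 2 groups alone, 6 with edgeR and 6 with DESeq2, with 0 to 3 when a library was left out. KO against WT in mESC gave 14, against 9 without a filter and 1 with the 2 groups alone, with 1 to 17 when a library was left out. Calls within 1 Mb at day 2 numbered 1, against 7 with the 2 groups alone, 2 with edgeR and 3 with DESeq2, with 0 to 1 when a library was left out, and in mESC 0, against 1 without a filter and 0 to 1 when a library was left out. With a replicate block, partner calls were 6 at day 2 and 5 in mESC for KO+Rescue against KO and 7 for KO against WT at day 2, and calls within 1 Mb were 5 at day 2 and 1 in mESC. The letters A and B were not shown to pair libraries, as the correlations of A minus B ran from -0.05 to 0.06 among the day 2 groups, from 0.12 to 0.17 among the mESC groups and up to 0.41 between the stages, with 2 libraries in a group. Apart from settings that change the genes tested or the libraries, the cause was not tested.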
